A study of Mus musculus with 51 samples.

Results

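Transcription factor genes of the luminal and alveolar mammary epithelium were followed across the mammary gland (MG) of 2 mouse strains after fractionated radiation: Elf5, Ehf, Elf3, Gata3, Stat5a, Stat5b, Msx2, Runx1, Id2 and Sox9. The members were all probe sets annotated to 1 of these 10 symbols alone, which gave 22 probe sets of 10 genes out of 22626 probe sets and 11807 singly annotated genes on the array. No probe set was shared with another gene. Levels are the deposited log2 expression values of an Affymetrix mouse array, and every difference below is a difference of log2 values.

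The glands came from virgin female mice that entered the experiment at 8 weeks of age and received 4 weekly whole-body fractions. The groups were HD (1.8 Gy per fraction), LD (7.5 cGy per fraction) and sham-exposed controls, in the strains BALB/c and C57BL/6, and glands were taken 4 hr or 1 month after irradiation ended. Each mouse gave 1 array. BALB/c had 4 HD, 4 LD and 3 sham arrays at 4 hr, and 4 HD, 2 LD and 3 sham arrays at 1 month. C57BL/6 had 4 HD, 4 LD and 3 sham arrays at 4 hr, and 4 HD, 4 LD and 4 sham arrays at 1 month. Nucleated blood cells of unirradiated females aged 9 weeks gave 4 arrays per strain. Neither strain carried a transgene. The tissue was the whole gland of the 4th pair with the inguinal lymph node removed, in which epithelium lies in a fat pad, so fewer cells of a type and less RNA per cell cannot be told apart.

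The luminal layer of the mammary epithelium holds hormone-sensing cells and a progenitor pool that forms the milk-secreting alveoli. Prolactin acts through its receptor and Jak2 on Stat5a and Stat5b, and Elf5 is a regulator of the alveolar lineage in this pathway. Gata3 maintains luminal cell identity, Ehf and Elf3 are epithelium-specific ETS factors related to Elf5, and Id2 is a helix-loop-helix protein without a DNA-binding region that mouse alveolar development requires. Sox9 marks luminal progenitors and other immature mammary cells. Msx2 is a homeobox factor of the developing gland, and Runx1 is a Runt-domain factor of both mammary epithelium and blood cells.

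Array medians lay between 6.16 and 6.36 in MG and between 4.61 and 4.70 in blood. Luminal structure genes, such as the keratins Krt8 and Krt18, averaged between 6.77 and 9.76 in the 43 MG arrays and between 4.40 and 5.37 in blood. Several MG arrays held high levels of transcripts of other tissues: the mean of 10 skeletal muscle genes was 11.82 in replicate 1 of BALB/c HD 4 hr and 10.85 in replicate 2 of C57BL/6 sham 1 month, against 4.36 in the lowest MG array, and the mean of 7 T cell genes was 7.90 in BALB/c HD 1 month replicate 1, against 4.63 to 4.72 in the other 3 arrays of its group. Below, 6 arrays were left out as an alternative: these 3, BALB/c LD 4 hr replicates 1 and 2, and BALB/c sham 4 hr replicate 1. Other arrays with such transcripts stayed in, among them BALB/c HD 1 month replicate 3 (muscle list 8.62) and C57BL/6 HD 1 month replicate 3 (T cell list 6.57). BALB/c and C57BL/6 glands were hybridised on separate plates, and strain and plate cannot be told apart. Within each plate the sham and irradiated groups also lay in different columns, apart from 1 column of the C57BL/6 1 month groups, so that dose and plate position largely cannot be told apart.

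The 10 genes spanned a wide range in MG. Stat5a was measured between 8.54 and 10.30 over the 43 arrays at its brighter probe set, Id2 between 7.37 and 9.66, and Elf5 between 6.16 and 10.19. The widest spread between group means belonged to Ehf, with 3.82 between its highest and lowest group, followed by Elf5 with 3.23 and the brightest Runx1 probe set with 2.86. Stat5b had the narrowest spread, with 0.58. In blood the ETS factors and Sox9 were near the array floor: Ehf lay between 2.72 and 3.05, Elf5 between 3.03 and 3.55, and Sox9 between 2.96 and 3.25. Id2 differed from these in that blood held it at 8.97 to 9.97 at 1435176_a_at, within or above its range in MG. At 1422537_a_at blood held 7.21 to 9.08 and MG 7.05 to 9.07. The dim 1453596_at was lower in blood, at 3.41 to 3.88 against 3.91 to 5.13 in MG. Array medians also differed between blood and MG, as given above. Runx1 probe set 1422864_at lay between 4.09 and 5.78 in blood.

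**Figure D1:**
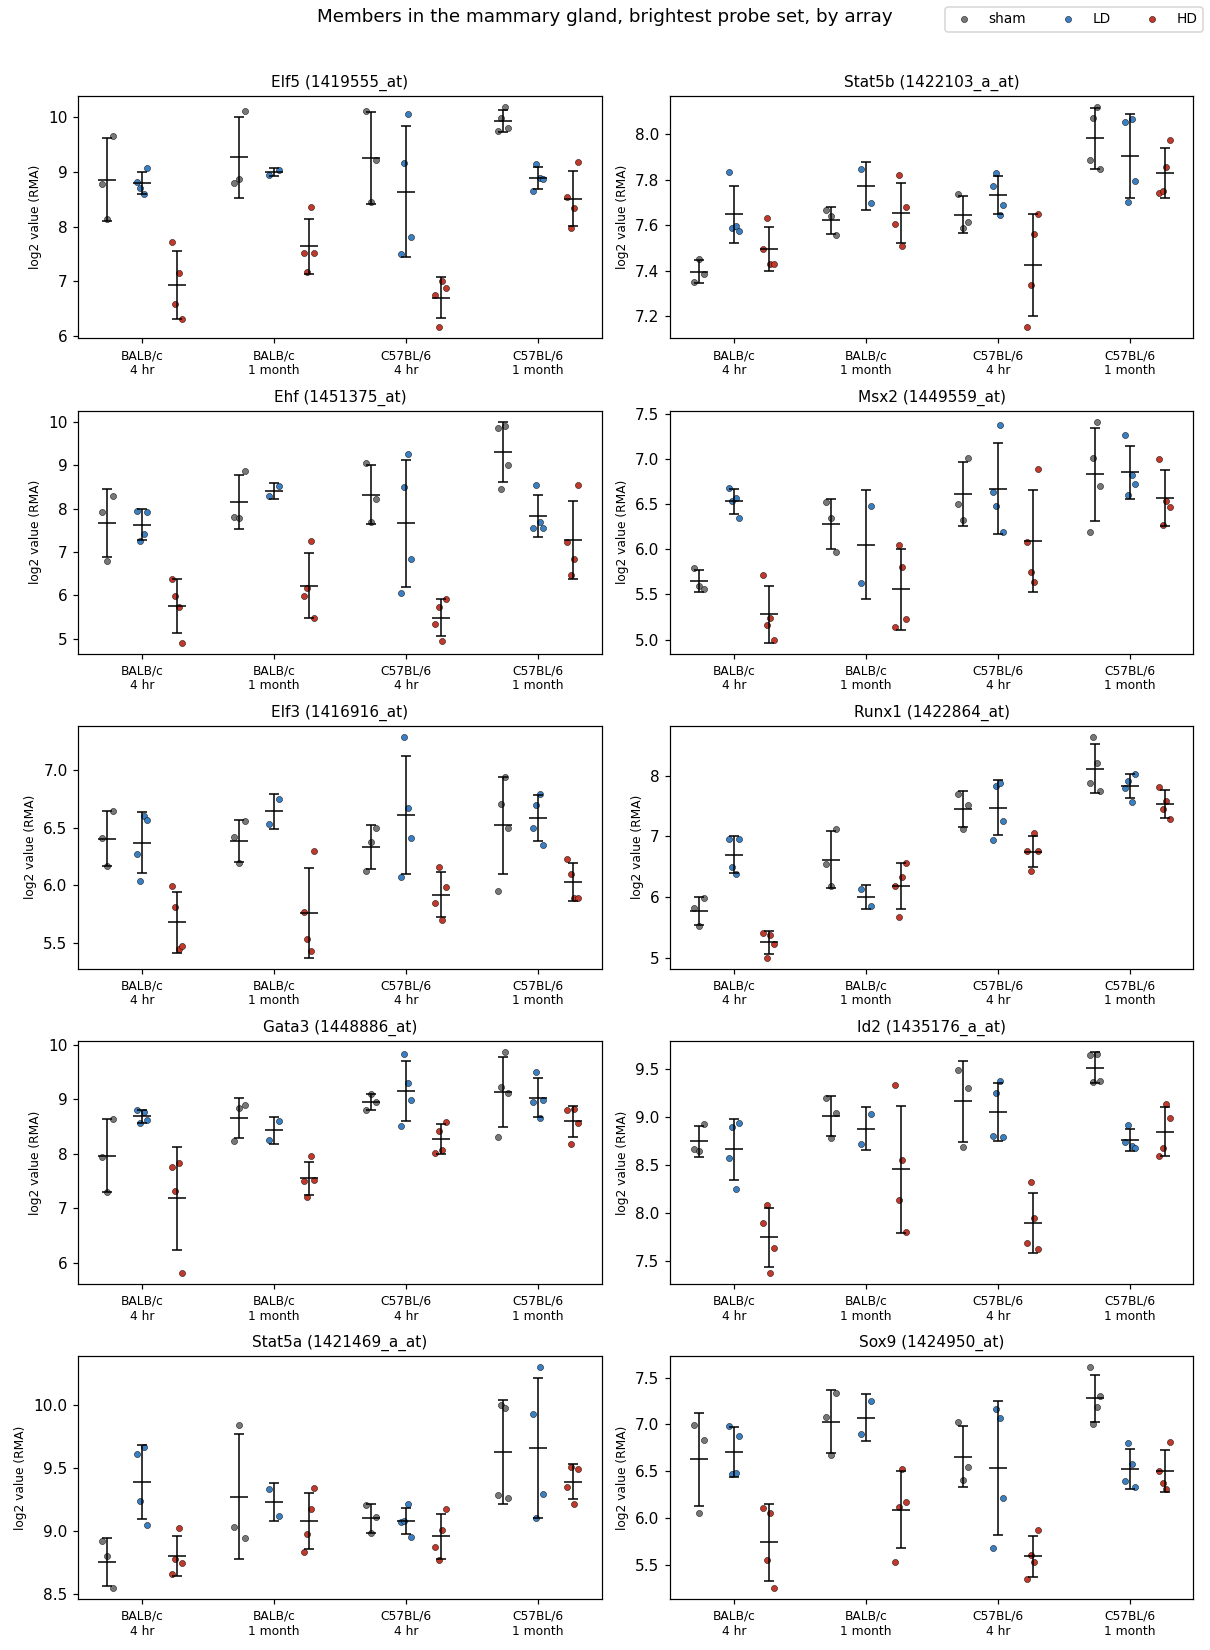
Log2 expression (y axis) of the brightest probe set of each of the 10 genes in every MG array, by strain, time and dose; each point is 1 array, and the lines are the group mean and SD. Elf5 lay between 6.16 and 7.71 in all 8 HD 4 hr arrays, and the 6 sham 4 hr arrays lay between 8.14 and 10.11.

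Elf5 and Runx1 are shown with their promoters because each has probe sets that behaved differently between the strains and each has 2 RefSeq start sites. Elf5 lies on chromosome 2 of GRCm38.p6 at 103412098 to 103450989 and Runx1 on chromosome 16 at 92601466 to 92826074, on the minus strand. Each RefSeq window below holds 250 bases before and 50 bases after a start site, 5′ to 3′ on the strand of the gene. Capitals mark GATAA or its reverse complement TTATC in Elf5, and TGTGGT or its reverse complement ACCACA, the core bound by RUNX factors, in Runx1.
Elf5 start 1, chr2:103411848-103412147: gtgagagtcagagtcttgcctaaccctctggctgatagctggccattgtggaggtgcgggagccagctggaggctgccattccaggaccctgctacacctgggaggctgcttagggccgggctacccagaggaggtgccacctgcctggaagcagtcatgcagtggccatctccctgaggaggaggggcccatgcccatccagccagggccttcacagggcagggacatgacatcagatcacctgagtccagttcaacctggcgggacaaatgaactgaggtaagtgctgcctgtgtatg
Elf5 start 2, chr2:103423818-103424117: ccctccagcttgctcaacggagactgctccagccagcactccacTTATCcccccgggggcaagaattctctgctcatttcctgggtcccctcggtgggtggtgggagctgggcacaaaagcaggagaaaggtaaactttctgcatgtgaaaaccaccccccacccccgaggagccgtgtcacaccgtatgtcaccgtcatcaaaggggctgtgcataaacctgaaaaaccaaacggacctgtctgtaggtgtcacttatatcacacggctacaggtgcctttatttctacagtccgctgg
Runx1 start 1, chr16:92826025-92826324: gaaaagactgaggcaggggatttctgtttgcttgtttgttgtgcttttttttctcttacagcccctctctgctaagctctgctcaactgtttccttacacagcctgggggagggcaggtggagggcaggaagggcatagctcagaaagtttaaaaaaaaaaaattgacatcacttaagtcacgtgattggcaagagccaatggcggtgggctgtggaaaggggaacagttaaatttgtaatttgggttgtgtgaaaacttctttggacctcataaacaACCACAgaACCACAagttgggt
Runx1 start 2, chr16:92697280-92697579: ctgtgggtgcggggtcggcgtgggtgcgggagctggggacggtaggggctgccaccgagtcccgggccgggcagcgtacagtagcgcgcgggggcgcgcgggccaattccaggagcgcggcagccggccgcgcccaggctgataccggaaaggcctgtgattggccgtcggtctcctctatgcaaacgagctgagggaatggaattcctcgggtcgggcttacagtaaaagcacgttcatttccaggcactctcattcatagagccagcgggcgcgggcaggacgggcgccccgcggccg
On both strands GATAA was present once in the second Elf5 window and in 25.4% of 32851 mouse promoter windows of the same length. TGTGGT had 2 copies in the first Runx1 window, 1 copy in 1 window of Stat5a, and at least 1 copy in 16.8% of all windows. The STAT motif TTCNNNGAA was in none of the 12 windows of the 8 members matched by symbol and in 8.3% of all windows. The ETS core GGAA was in all 12 windows and in 96% of all windows, so that it does not set the members apart. Ehf and Sox9 had no entry.

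The first comparison asked what HD did to the factors 4 hr after the last fraction. In both strains Elf5, Ehf and Id2 were lower in HD than in sham MG, and no member passed as higher in either strain. In BALB/c, 6 of 22 probe sets in 5 genes passed an adjusted p of 0.05 and were lower, against 5.14% of all probe sets called in either direction. In C57BL/6, 4 of 22 probe sets in 3 genes passed and were lower, against 0.716% of all probe sets. The direction was negative for 18 of 22 member probe sets (BALB/c) and 22 of 22 (C57BL/6). The median of the 10 genes was −0.75 in BALB/c and −0.69 in C57BL/6, where the median over 11807 genes lay between −0.01 and 0.00.

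Elf5, the alveolar lineage factor, had log2 values of 7.71, 6.60, 7.15 and 6.31 in BALB/c HD MG, against 8.78, 8.14 and 9.65 in sham MG at probe set 1419555_at. It had 6.75, 6.16, 7.02 and 6.88 in C57BL/6 HD MG, against 10.11, 8.44 and 9.21 in sham MG. In each strain the HD arrays all lay below the sham arrays. How many of all probe sets were apart like this was not counted, here or in the comparisons below. Elf5 fell by 1.91 (SE 0.38, adjusted p = 0.0108) in BALB/c and fell by 2.55 (SE 0.45, adjusted p = 0.0059) in C57BL/6. The dimmer probe set 1419556_at was at −0.78 (adjusted p = 0.0829) in BALB/c and −0.41 (adjusted p = 0.288) in C57BL/6, where its level was 4.17 to 4.56 in HD and 4.62 to 4.92 in sham MG.

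Ehf, the ETS factor whose gene lies near Elf5 on chromosome 2 (103263431 to 103303275), gave 6.39, 6.00, 5.72 and 4.91 in BALB/c HD MG, against 7.92, 6.78 and 8.30 in sham MG at probe set 1451375_at. It gave 5.35, 5.73, 4.95 and 5.92 in C57BL/6 HD MG, against 9.05, 7.70 and 8.23 in sham MG. The groups did not overlap in either strain. Ehf fell by 1.91 (SE 0.42, adjusted p = 0.0176) in BALB/c and fell by 2.84 (SE 0.60, adjusted p = 0.0244) in C57BL/6, and probe set 1419475_a_at fell by 1.38 (adjusted p = 0.0198) in BALB/c and was at −2.03 (adjusted p = 0.0819) in C57BL/6. Elf3, the third ETS factor, on chromosome 1 at 135253574 to 135258472, had 5.99, 5.81, 5.45 and 5.47 in BALB/c HD MG, against 6.41, 6.17 and 6.64 in sham MG. Elf3 fell by 0.73 (SE 0.20, adjusted p = 0.0412) in BALB/c and was at −0.41 (adjusted p = 0.458) in C57BL/6.

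Id2, on chromosome 12 at 25093799 to 25096092, gave 7.89, 8.08, 7.37 and 7.64 in BALB/c HD MG, against 8.66, 8.65 and 8.93 in sham MG at probe set 1435176_a_at. In C57BL/6 the HD arrays gave 7.69, 8.32, 7.94 and 7.62, against 9.49, 8.68 and 9.31 in sham MG. The HD arrays were the lower ones throughout. Id2 fell in BALB/c (95% interval −1.56 to −0.44, SE 0.27, adjusted p = 0.0396) and fell by 1.27 (SE 0.19, adjusted p = 0.00137) in C57BL/6, and in C57BL/6 a second probe set, 1422537_a_at, fell by 1.05 (adjusted p = 0.0213). Sox9, on chromosome 11 at 112782210 to 112787757, fell by 0.61 (SE 0.17, adjusted p = 0.0486) at probe set 1451538_at in BALB/c. Its brighter probe set was at −0.89 (adjusted p = 0.0588) in BALB/c and −1.07 (adjusted p = 0.0612) in C57BL/6.

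The remaining members did not pass after HD at 4 hr. Gata3, on chromosome 2 at 9857078 to 9887953, was at −0.78 (SE 0.38, adjusted p = 0.244) in BALB/c and −0.67 (SE 0.30, adjusted p = 0.34) in C57BL/6. The brighter Stat5a probe set was at 0.04 (95% interval −0.37 to 0.46) in BALB/c and −0.14 (−0.60 to 0.32) in C57BL/6, and the brighter Stat5b probe set at 0.10 (−0.09 to 0.29) and −0.22 (−0.46 to 0.02). Of the 5 Runx1 probe sets, 1422865_at was at −0.83 (adjusted p = 0.0751) in BALB/c and −0.65 (adjusted p = 0.0563) in C57BL/6. The others are given as ranges with single arrays left out. They were −0.64 to −0.41 (BALB/c) and −0.86 to −0.57 (C57BL/6) at 1422864_at. In the same order they were −0.23 to −0.07 and −0.25 to −0.11 at 1427650_a_at. At 1452530_a_at they were −0.05 to 0.10 and −0.10 to 0.01, and at 1452531_at −0.38 to −0.10 and −0.28 to 0.14. Msx2, on chromosome 13 at 53466881 to 53472780, was at −0.37 in BALB/c and −0.52 in C57BL/6, with adjusted p of 0.383 and 0.501.

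The study's own thresholds were an absolute log2 difference above 0.58 with an unadjusted p below 0.01 for HD and below 0.1 for LD. Past these lay 10 member probe sets of 6 genes in BALB/c HD MG at 4 hr, against 3.71% of all probe sets, and 8 of 5 genes in C57BL/6, against 1.82%. All were lower than sham. The BALB/c count was 6 without HD 4 hr replicate 2 or 4, 4 without sham 4 hr replicate 3, and 4 with plate column as a covariate.

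The luminal cells themselves gave the setting of these values. Of 19 luminal structure genes, 15 fell in BALB/c HD MG at 4 hr with a median of −1.27, and the level of the list was 6.77 to 8.08 in HD, against 8.48 to 9.01 in sham MG. In C57BL/6 none of the 19 passed, the median was −0.61, and the list lay at 8.13 to 8.87 in HD, against 8.93 to 9.18 in sham MG. Elf5 minus the luminal structure mean of the same array was −0.81 to −0.37 in BALB/c HD MG and −0.34 to 0.74 in sham MG. BALB/c LD MG at 4 hr lay at −0.75 to −0.16 and overlapped HD MG. The same difference was −2.43 to −1.11 in C57BL/6 HD MG, −0.74 to 1.18 in sham MG and −1.25 to 0.57 in LD MG. Ehf minus that mean was −3.17 to −2.80 in C57BL/6 HD MG, against −1.48 to 0.11 in sham MG and −2.47 to −0.22 in LD MG. Ehf in BALB/c overlapped, at −2.10 to −1.41 in HD MG and −1.69 to −0.61 in sham MG, with LD MG at −1.93 to −1.32. The other 3 genes with a call in BALB/c did not have HD MG below sham MG in this measure. Elf3 averaged −1.84 in HD MG and −2.39 in sham MG, Sox9 at 1424950_at, which was not the called probe set, −1.78 in HD MG and −2.17 in sham MG, and Id2 0.22 in HD MG and −0.05 in sham MG. Id2 in C57BL/6 averaged −0.54 in HD MG and 0.11 in sham MG, with overlap. The part of luminal cell number in the falls was not tested.

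Without the 6 arrays, 3 of the 22 probe sets passed in BALB/c and 4 in C57BL/6, and the 3 in BALB/c were of Elf5, Id2 and Runx1. The C57BL/6 groups at 4 hr lost none of their arrays in that fit, so it hardly tests the C57BL/6 count. With plate column as a covariate, 0 passed in BALB/c and 1 in C57BL/6, Id2. Leaving out single arrays moved the BALB/c count between 1 and 9 and the C57BL/6 count between 1 and 4. The count was 1 in BALB/c without HD 4 hr replicate 4, sham 4 hr replicate 1 or sham 4 hr replicate 3, and 2 without HD 4 hr replicate 3. It was 1 in C57BL/6 without sham 4 hr replicate 1, and 2 without HD 4 hr replicate 1, HD 4 hr replicate 3 or sham 4 hr replicate 3. Elf5 in BALB/c and Id2 at 1435176_a_at in C57BL/6 passed with every array left out in turn.

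**Figure D2:**
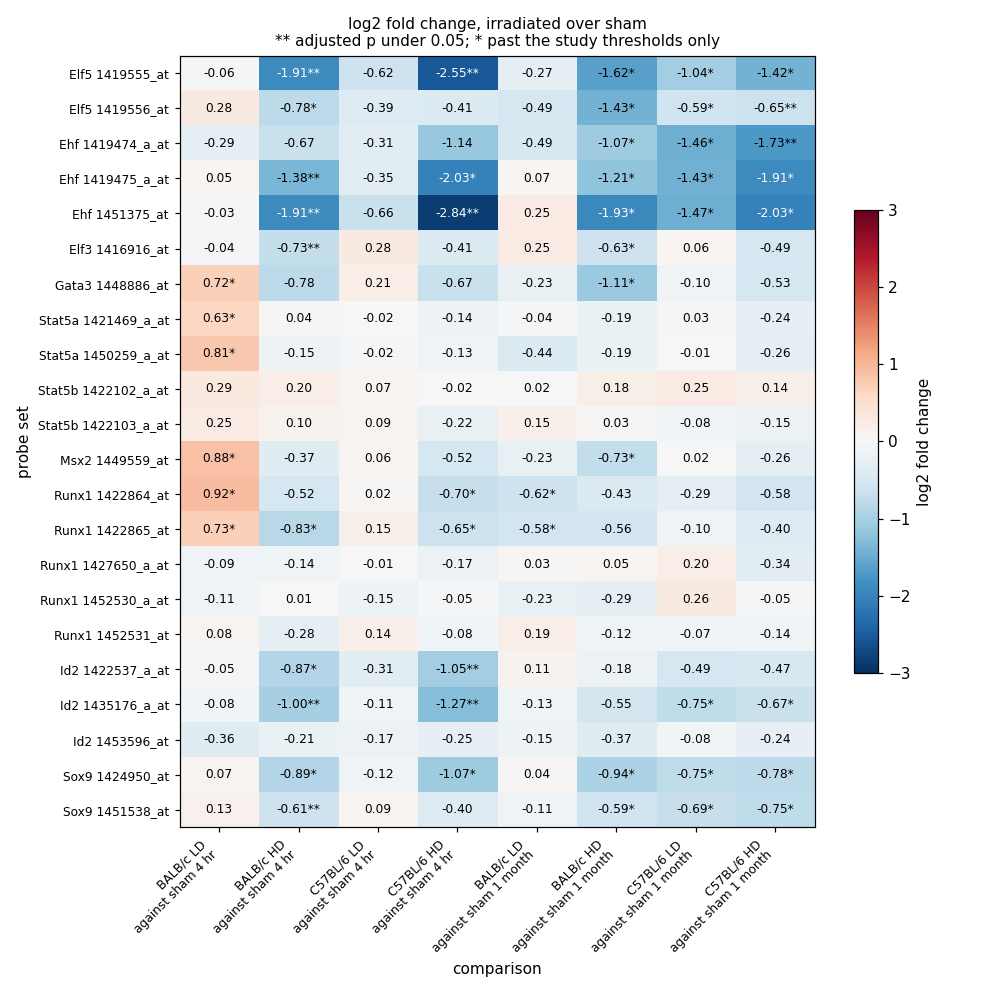
Log2 difference between irradiated and sham MG of the same strain and time (colour and printed value) for the 22 member probe sets (rows) after LD and HD (columns), with 2 asterisks for an adjusted p under 0.05 and 1 for the study's thresholds only. Elf5 1419555_at lay at −1.91 in BALB/c and −2.55 in C57BL/6 in HD MG at 4 hr, while the Stat5a and Stat5b probe sets lay between −0.22 and 0.20.

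A direct comparison of the doses at 4 hr covered more of the genes in BALB/c. HD MG was lower than LD MG for 13 of 22 probe sets in 9 of the 10 genes, all but Stat5b, against 7.42% of all probe sets called. In C57BL/6, 3 of 22 probe sets were lower, of Elf5, Runx1 and Id2, against 1.43% of all probe sets, and all 3 were also among the 13 of BALB/c. The medians of the 10 genes were −1.11 in BALB/c and −0.80 in C57BL/6. The HD arrays here are those already set against sham MG, and the LD arrays those set against the same sham MG below.

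Runx1 had the smallest adjusted p among the members in BALB/c. At probe set 1422864_at the values were 5.23 to 5.41 in 3 of the BALB/c HD arrays and lower still in replicate 2, against 6.96, 6.49, 6.37 and 6.95 in LD MG. At 1422865_at they were 6.49, 5.07, 5.86 and 5.56 in HD MG, against 7.64, 6.94, 7.13 and 7.52 in LD MG. Neither pair of groups overlapped, and the gap at the first probe set was the clearer one. At these probe sets Runx1 was lower in HD MG, with differences of −1.44 (SE 0.21, adjusted p = 0.000564) and −1.56 (SE 0.25, adjusted p = 0.0012). The other Runx1 probe sets did not pass. With single arrays left out, 1427650_a_at lay at −0.14 to 0.05, 1452530_a_at at 0.08 to 0.20 and 1452531_at at −0.47 to −0.18. In C57BL/6, 1422865_at read 6.21, 6.16, 6.12 and 6.06 in HD MG, against 6.71, 7.26, 7.18 and 6.59 in LD MG, a difference of −0.80 (SE 0.15, adjusted p = 0.00752). There 1422864_at did not pass, lay at −0.90 to −0.59 with single arrays left out, and passed in 1 of these 8 fits. The others lay at −0.25 to −0.10 (1427650_a_at), 0.03 to 0.16 (1452530_a_at) and −0.26 to −0.15 (1452531_at), and none passed.

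Msx2 showed the same order in BALB/c, with 5.72, 5.16, 5.24 and 4.99 in HD MG, against 6.68, 6.54, 6.58 and 6.35 in LD MG. Gata3, the luminal identity factor, had 7.75, 7.32, 7.83 and 5.81 in HD MG, against 8.80, 8.56, 8.76 and 8.62 in LD MG. No array of one dose reached the range of the other for either gene. The differences were −1.26 (SE 0.21, adjusted p = 0.00196) for Msx2 and −1.51 (SE 0.35, adjusted p = 0.0156) for Gata3. Stat5a, a prolactin signal carrier, had 7.44, 6.74, 7.24 and 7.33 in BALB/c HD MG, against 8.38, 7.95, 8.34 and 7.90 in LD MG at probe set 1450259_a_at. Its difference was −0.96 (SE 0.23, adjusted p = 0.017), and its brighter probe set 1421469_a_at was at −0.59 (adjusted p = 0.0564). In C57BL/6 the same 2 probe sets were at −0.10 and −0.12.

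The ETS factors followed. Elf5 differed between HD and LD MG by −1.85 (SE 0.35, adjusted p = 0.00445) in BALB/c and −1.93 (SE 0.42, adjusted p = 0.0224) in C57BL/6, where LD arrays were spread at 7.49, 9.17, 10.06 and 7.81. Ehf differed by −1.88 (adjusted p = 0.00813) in BALB/c and by −2.18 (adjusted p = 0.0513) in C57BL/6. Id2 was also lower in HD MG, with differences of −0.92 (adjusted p = 0.0325) in BALB/c and −1.16 (SE 0.18, adjusted p = 0.00168) in C57BL/6. The BALB/c differences were −0.96 (adjusted p = 0.0245) and −0.75 (adjusted p = 0.0102) at the Sox9 probe sets and −0.69 (adjusted p = 0.029) for Elf3. Luminal structure genes passed the adjusted test as lower in 18 of 19 cases in BALB/c (median −1.80) and in 2 of 19 in C57BL/6 (median −0.80). Without the 6 arrays the BALB/c count of members was 6 and the C57BL/6 count 3, and none of the 6 was a C57BL/6 array of 4 hr. The plate column fit gave 3 in BALB/c (Runx1 and Msx2) and 1 in C57BL/6 (Runx1). In C57BL/6 the count was 9 without LD 4 hr replicate 1, and 5 without LD 4 hr replicate 4 or HD 4 hr replicate 4.

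**Figure D3:**
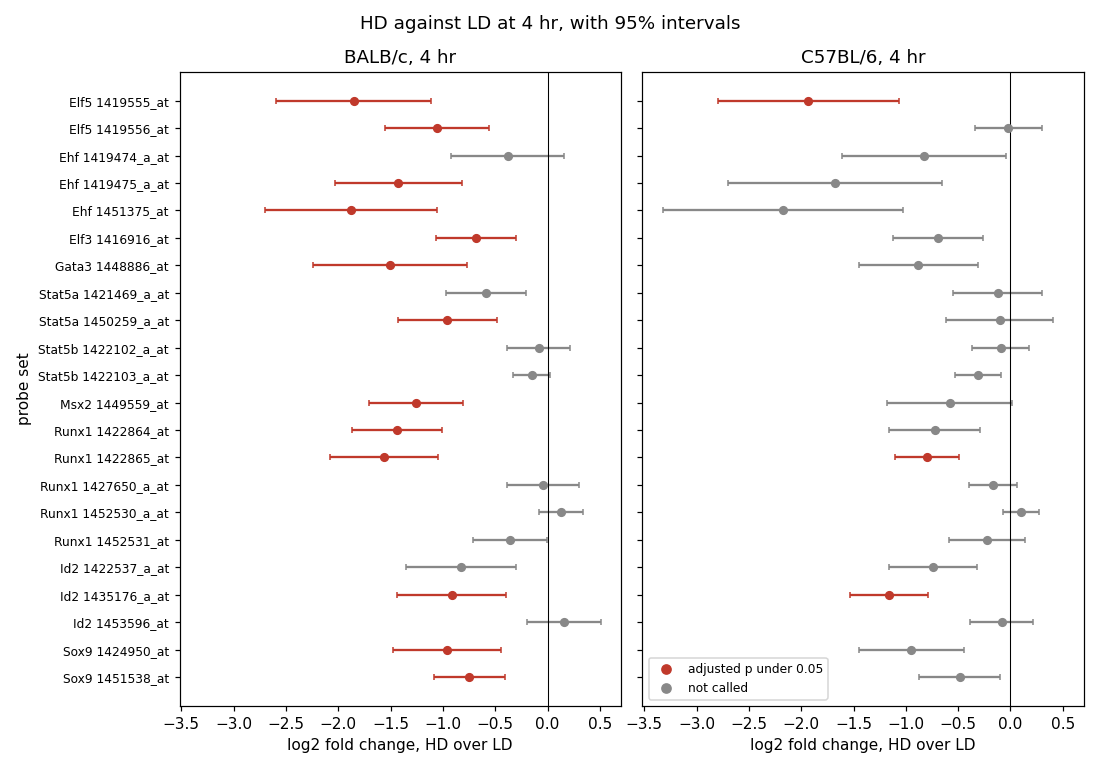
Log2 difference between HD and LD MG at 4 hr (x axis, points with 95% intervals) for all 22 member probe sets (rows), in BALB/c (left) and C57BL/6 (right), with red for an adjusted p under 0.05. In BALB/c 13 probe sets passed and were lower in HD, with differences between −1.88 (Ehf) and −0.69 (Elf3), and in C57BL/6 3 passed.

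The LD groups at 4 hr asked whether the low dose itself moved the factors. By limma no member probe set, and 0% of all probe sets, passed an adjusted p of 0.05 in either strain, and at an unadjusted p below 0.05 there were 6 (BALB/c) and 1 (C57BL/6) member probe sets. Past the study's thresholds, 6 BALB/c probe sets of 4 genes lay above sham MG, against 1.5% of all probe sets. They were of Runx1, Msx2, Stat5a and Gata3. In C57BL/6 no member lay past them, against 0.345% of all probe sets, and 2 and 1 did without LD replicate 3 and sham replicate 2. The plate column fit put 3 (BALB/c) and 4 (C57BL/6) past them. The median of the 10 genes was 0.16 in BALB/c and 0.00 in C57BL/6.

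Msx2 had 6.68, 6.54, 6.58 and 6.35 in BALB/c LD MG, against 5.80, 5.60 and 5.56 in sham MG. Runx1 at 1422864_at had 6.96, 6.49, 6.37 and 6.95 in LD MG, against 5.82, 5.52 and 5.98 in sham MG. Stat5a at 1421469_a_at had 9.61, 9.23, 9.66 and 9.05 in LD MG, against 8.92, 8.80 and 8.54 in sham MG. All LD arrays lay above all sham arrays for these 3 probe sets, which were among those past the study's thresholds. The share of all probe sets apart in this way was not counted. The differences were 0.88 (SE 0.23, adjusted p = 0.241) for Msx2, 0.92 (SE 0.22, adjusted p = 0.206) for Runx1 and 0.63 (SE 0.20, adjusted p = 0.293) for Stat5a, and none passed. Gata3 overlapped, with 8.56 to 8.80 in LD and 7.30 to 8.64 in sham MG (difference 0.72, adjusted p = 0.554). Elf5, Ehf and Id2, which were the lower members in HD MG, were at −0.06 (95% interval −0.86 to 0.74), −0.03 (−0.92 to 0.85) and −0.08 (−0.65 to 0.48).

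Of the luminal structure genes, 18 of 19 lay above 0 in BALB/c LD MG, with a median of 0.37, and none passed. The skeletal muscle list was at 6.29 to 7.44 in 3 of the 4 BALB/c LD arrays and at 4.55 in replicate 1, where the epidermis list stood at 6.80. Sham replicates 1 and 2 carried muscle (7.90) and epidermis (5.50) transcripts. Without the 6 arrays, 5 member probe sets lay past the study's thresholds, with Msx2 at 0.88 and Runx1 at 0.91 and 0.62, and LD replicates 3 and 4 and sham replicate 2 with their muscle and epidermis transcripts stayed in that fit.

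At 1 month, member calls in HD MG were limited to C57BL/6. There, Ehf at 1419474_a_at and Elf5 at 1419556_at passed, 2 of 22 probe sets against 0.915% of all. In BALB/c none passed by limma, against 0.0177% of all probe sets, with 12 member probe sets at an unadjusted p below 0.05. Past the study's thresholds lay 10 probe sets of 6 genes in BALB/c, against 1.34% of all, and 8 of 4 genes in C57BL/6, against 1.87%, all lower than sham. Without sham replicate 3 the BALB/c number was 4, without HD replicate 2 that of C57BL/6 was 5, and with plate column as a covariate they were 2 and 1. The medians of the 10 genes were −0.68 in BALB/c and −0.56 in C57BL/6.

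Elf5 at 1419556_at had 4.52, 4.01, 4.50 and 4.63 in C57BL/6 HD MG, against 5.02, 5.18, 5.17 and 4.88 in sham MG, and fell by 0.65 (SE 0.16, adjusted p = 0.0494). Ehf at 1419474_a_at had 4.26, 4.50, 4.23 and 5.17 in HD MG, against 6.87, 5.50, 6.92 and 5.81 in sham MG, and fell by 1.73 (SE 0.38, adjusted p = 0.0391). The groups did not overlap for either probe set. In BALB/c, Elf5 at the same probe set had 4.89, 4.47, 5.63 and 5.18 in HD MG, against 6.31, 6.25 and 6.85 in sham MG, a difference of −1.43 (SE 0.25, adjusted p = 0.0567). Ehf at 1451375_at had 5.98, 6.17, 7.26 and 5.49 in BALB/c HD MG, against 7.81, 7.80 and 8.88 in sham MG, a difference of −1.93 (SE 0.42, adjusted p = 0.0915). These groups were also apart, but neither difference passed, and the share of all probe sets apart in this way was not counted. The brighter Elf5 probe set 1419555_at did not pass, at −1.62 (adjusted p = 0.115) in BALB/c and −1.42 (adjusted p = 0.0864) in C57BL/6, nor did Ehf at 1451375_at in C57BL/6, at −2.03 (adjusted p = 0.074). Gata3 was at −1.11 (adjusted p = 0.29) in BALB/c and −0.53 (adjusted p = 0.326) in C57BL/6, and Sox9 at −0.94 and −0.78.

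The C57BL/6 count at 1 month was 0 without sham replicate 1, sham replicate 3 or any of HD replicates 1, 2 and 3, 1 without sham replicate 2, and 4 without HD replicate 4, and the BALB/c count was 3 without HD replicate 3. Id2 in BALB/c HD MG was 9.33 in replicate 1, the array with lymphocyte transcripts (B cell list 7.66, T cell list 7.90), and 8.13, 8.55 and 7.80 in the others, against 9.19, 8.78 and 9.04 in sham MG. The Id2 difference was −0.55 (adjusted p = 0.484), and −0.84 (adjusted p = 0.169) without that array. Id2 was also high in blood at 1435176_a_at, as given above. The luminal structure median was −1.07 in BALB/c with 0 of 19 past the test and −0.50 in C57BL/6 with 1 of 19, Muc1.

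LD MG at 1 month gave no call in either strain by limma, again with 0% of all probe sets called. In C57BL/6, 10 member probe sets had an unadjusted p below 0.05, and 8 of 4 genes lay past the study's thresholds, all below sham, against 1.72% of all probe sets. In BALB/c, with 2 LD arrays, 1 was below that p and 2 Runx1 probe sets lay past the thresholds, at −0.62 and −0.58, against 1.1% of all probe sets. The BALB/c number was 4 without sham replicate 2, and 1 without LD replicate 2 or sham replicate 3. The 4 genes in C57BL/6 were Ehf, Elf5, Sox9 and Id2.

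In C57BL/6, Elf5 at 1419555_at had 8.64, 9.13, 8.89 and 8.87 in LD MG, against 9.74, 9.98, 10.19 and 9.80 in sham MG. Id2 at 1435176_a_at had 8.73, 8.92, 8.70 and 8.67 in LD MG, against 9.65, 9.37, 9.66 and 9.37 in sham MG. Sox9 at 1424950_at had 6.39, 6.80, 6.58 and 6.33 in LD MG, against 7.61, 7.01, 7.19 and 7.31 in sham MG. None of these groups overlapped, and the sham arrays were the higher ones. These probe sets were among those past the study's thresholds, and how many of all probe sets were apart was not counted. The differences were −1.04 (SE 0.42, adjusted p = 0.305) for Elf5, −0.75 (SE 0.18, adjusted p = 0.142) for Id2 and −0.75 (SE 0.24, adjusted p = 0.219) for Sox9. Ehf was at −1.47, −1.43 and −1.46 over its probe sets, with overlap at 1451375_at, where LD replicate 2 read 8.55 and the lowest sham array 8.47.

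The lists beside these values had unequal medians, and no test compared them. The mean of 12 luminal progenitor and alveolar genes was 8.13 to 8.69 in C57BL/6 LD MG, against 8.60 to 8.88 in sham MG. Luminal structure genes had a median of −0.04 with 9 of 19 above 0, and myoepithelial genes, such as the smooth muscle actin Acta2, a median of −0.65 with 1 of 10 above 0. Of the 10 myoepithelial genes, 6 lay past the study's thresholds and none passed the adjusted test. The skeletal muscle list was 10.85 and 6.32 in sham replicates 2 and 4, and 6.63 in LD replicate 4. Without the 6 arrays, 7 member probe sets lay past the thresholds.

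HD against LD at 1 month gave no member call, against 0.00884% (BALB/c) and 0% (C57BL/6) of all probe sets, with 7 and 3 member probe sets at an unadjusted p below 0.05 by limma. The smallest p in C57BL/6 was that of Runx1 probe set 1427650_a_at, with 4.35, 4.58, 4.45 and 4.49 in HD MG, against 4.81, 4.78, 5.19 and 5.27 in LD MG (difference −0.54, SE 0.11, adjusted p = 0.132). Those levels were among the lowest of the members. In BALB/c the smallest was that of Ehf at 1451375_at, with a difference of −2.18 (SE 0.48, adjusted p = 0.153), and it passed without HD replicate 3 (adjusted p = 0.0473).

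In sham MG, 20 of 22 member probe sets (BALB/c) and 21 of 22 (C57BL/6) had a higher mean at 1 month than at 4 hr. Of all probe sets, 46.6% (BALB/c) and 51.5% (C57BL/6) did. Probe sets of the same gene are not independent of each other. Only Runx1 at 1422865_at in C57BL/6 passed, against 2.84% of all probe sets, with 7.29, 7.60, 7.58 and 7.11 at 1 month, against 6.85, 6.66 and 6.86 at 4 hr. It rose by 0.60 (SE 0.16, adjusted p = 0.0422), without overlap. It did not pass without the 6 arrays, nor with any of the 7 sham arrays left out in turn except 1 month replicate 4. In BALB/c none passed by limma, with 0% of all probe sets called and 7 member probe sets at an unadjusted p below 0.05. The same Runx1 probe set had 7.22, 7.11 and 7.48 at 1 month, against 6.33, 6.31 and 7.10 at 4 hr (difference 0.69, adjusted p = 0.712). The medians of the 10 genes were 0.45 in BALB/c and 0.44 in C57BL/6, and those of the luminal structure genes 0.39 and 0.34. Mice of the 1 month groups were also older, and age and time after the last sham exposure cannot be told apart.

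The strains were set against each other in sham MG, averaged over both times. Of 22 probe sets, 5 passed, against 9.14% of all probe sets. Elf5 at 1419556_at was higher in BALB/c, and Runx1 at 1422864_at, Msx2, Stat5b at 1422103_a_at and Id2 at 1435176_a_at were lower.

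Elf5 at 1419556_at had 5.73, 5.36, 6.09, 6.31, 6.25 and 6.85 in BALB/c sham MG, against 4.92, 4.62, 4.75, 5.02, 5.18, 5.17 and 4.88 in C57BL/6 sham MG. The strains did not overlap, and the difference was 1.18 (SE 0.13, adjusted p = 8.1e-05). At 1419555_at the difference was −0.53 (SE 0.31, 95% interval −1.20 to 0.14, adjusted p = 0.328). Runx1 at 1422864_at had 5.82, 5.52, 5.98, 6.54, 6.18 and 7.12 in BALB/c, against 7.70, 7.13, 7.52, 7.87, 8.64, 8.21 and 7.74 in C57BL/6. Every BALB/c array was below every C57BL/6 array, with a difference of −1.59 (SE 0.18, adjusted p = 0.000101). The other Runx1 probe sets gave −0.16 (95% interval −0.46 to 0.13) at 1422865_at, −0.05 (−0.22 to 0.13) at 1427650_a_at, 0.00 (−0.13 to 0.14) at 1452530_a_at and 0.21 (−0.09 to 0.52) at 1452531_at, and none passed.

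Probe sets of 1 gene gave strain differences of unequal size on the same arrays. Runx1 1422864_at minus 1422865_at was −1.12 to −0.36 in the 6 BALB/c sham MG arrays (mean −0.73 ± 0.27, SD) and 0.47 to 1.04 in the 7 C57BL/6 arrays (mean 0.69 ± 0.19). The strains lay −1.42 apart in this measure. In blood, where both strains shared a plate, the same difference was −0.87 to −0.27 in BALB/c and 0.54 to 0.90 in C57BL/6. Elf5 1419556_at minus 1419555_at was −3.55 to −2.49 in BALB/c sham MG and −5.20 to −3.82 in C57BL/6 sham MG, with a strain difference of 1.72. These pairs were chosen after their values were seen, and their differences are a description with no test. The probes' sequences were not analysed here, and the cause was not tested.

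**Figure D4:**
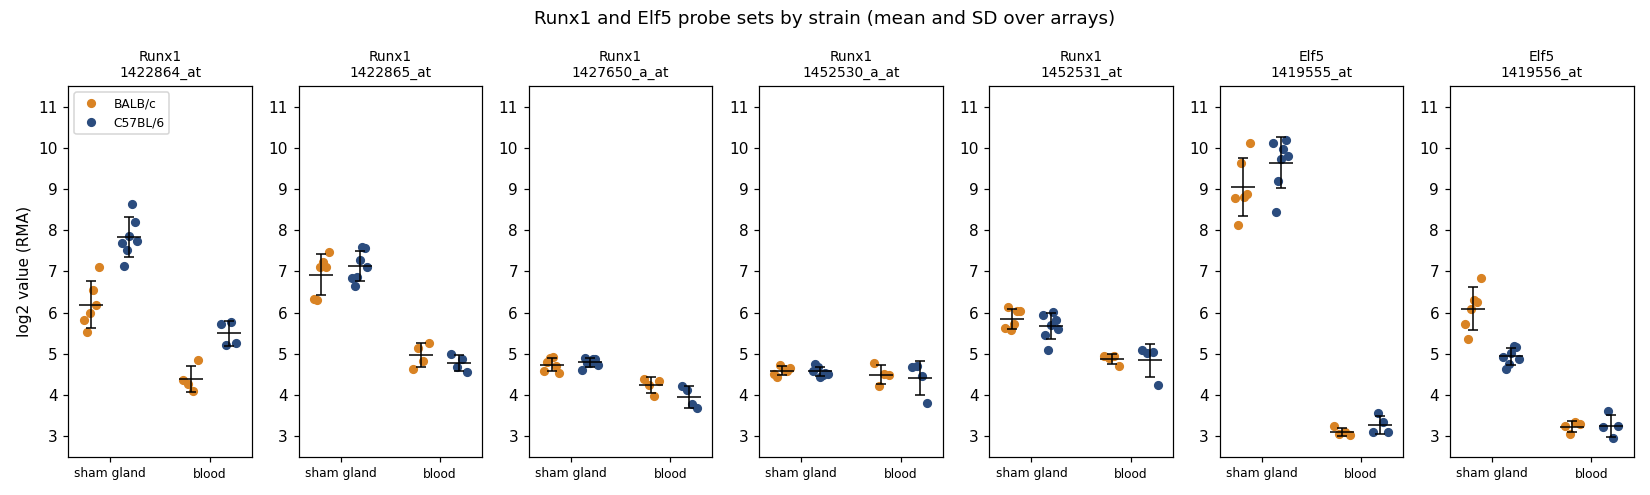
Log2 values (y axis) of the Runx1 and Elf5 probe sets in sham MG and blood, each point 1 array with the mean and SD as lines, in BALB/c (orange) and C57BL/6 (blue). Runx1 1422864_at was lower in every BALB/c sham MG array than in any C57BL/6 sham MG array (5.52 to 7.12 and 7.13 to 8.64), while 1422865_at overlapped.

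The other strain differences in sham MG were smaller. Msx2 had 5.56 to 6.52 in BALB/c and 6.20 to 7.42 in C57BL/6, a difference of −0.76 (SE 0.18, adjusted p = 0.0202), and the ranges overlapped. Stat5b, on chromosome 11 at 100780731 to 100859004, had 7.35 to 7.67 in BALB/c and 7.59 to 8.12 in C57BL/6 at 1422103_a_at, a difference of −0.30 (SE 0.06, adjusted p = 0.00993). Id2 was at −0.46 (SE 0.13, adjusted p = 0.0407). Gata3 and Ehf at 1451375_at were at −0.73 (adjusted p = 0.0939) and −0.90 (adjusted p = 0.118). Stat5a, which lies next to Stat5b at 100859351 to 100885169, was at −0.35 (adjusted p = 0.244). Without the 6 arrays, and likewise without C57BL/6 sham 4 hr replicate 3 or BALB/c sham 1 month replicate 3, 3 of the 5 passed. Elf5, Stat5b and Runx1 passed with every array left out in turn.

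Whether the strains differed in their response to a dose was tested as an interaction over all 43 MG arrays. No member, and 0% of all probe sets, passed in any of the 4 comparisons (LD and HD at 4 hr and 1 month), with 4 and 1 member probe sets at 4 hr and 3 and 1 at 1 month at an unadjusted p below 0.05. The BALB/c response to LD at 4 hr minus the C57BL/6 response was 0.90 (95% interval 0.23 to 1.57, adjusted p = 1 by limma) for Runx1 at 1422864_at. After HD at 4 hr it was 0.64 (−0.62 to 1.90) for Elf5, 0.92 (−0.65 to 2.50) for Ehf and 0.27 (−0.42 to 0.96) for Id2. These intervals are wide, and a difference of 1 log2 unit lies within the first 2.

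In blood, no member passed between the strains by limma, against 0.482% of all probe sets, with 2 member probe sets at an unadjusted p below 0.05. Runx1 at 1422864_at had 4.35, 4.28, 4.09 and 4.85 in BALB/c blood, against 5.73, 5.21, 5.78 and 5.27 in C57BL/6 blood. The strains were apart, with a difference of −1.10 (SE 0.20, adjusted p = 0.0889). C57BL/6 blood replicate 4 had a B cell list level of 6.73, against 8.59 to 8.65 in the other 3 arrays of that strain, and a liver list level of 13.39, against 3.82 to 4.25. The liver list lay at 3.80 to 7.47 in the BALB/c blood arrays. Without C57BL/6 replicate 4 the Runx1 difference passed (adjusted p = 0.0153), and the part of these cell types in it was not tested. At 1422865_at the strain difference in blood was 0.18 (95% interval −0.20 to 0.57).

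Other genes of the pathway and the gland were read from lists. Of 13 genes of prolactin and Stat5 signalling, 2 rose in BALB/c HD MG at 4 hr, the phosphatase gene Ptpn11 by 0.33 (SE 0.08, adjusted p = 0.0296) and the survival gene Bcl2l1 by 0.44 (SE 0.11, adjusted p = 0.0303), none fell, and the median was −0.08. In C57BL/6 none of the 13 passed (median −0.04). Of 11 milk protein and lipid genes none passed in either strain, with medians of −0.14 and −0.05. These medians lay near that of all genes.

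Among 12 luminal progenitor and alveolar genes, 3 fell in BALB/c HD MG at 4 hr (median −0.65) and 2 in C57BL/6 (median −0.82). Kit, the receptor of stem cell factor, fell by 1.13 (SE 0.24, adjusted p = 0.0137) in BALB/c and fell by 1.31 (SE 0.31, adjusted p = 0.0494) in C57BL/6. Wfdc18 fell by 1.76 (SE 0.39, adjusted p = 0.0187) in BALB/c and fell by 1.96 (SE 0.43, adjusted p = 0.0314) in C57BL/6. In C57BL/6 HD MG at 1 month 3 of the 12 fell, with differences of −0.98 for Cd14, −0.67 for Mfge8 and −1.03 for Aldh1a3. Of 8 hormone-sensing genes none passed in HD MG at 4 hr in either strain (medians −0.27 and −0.02).

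Of 19 paralogs and partners of the members, 4 fell in BALB/c HD MG at 4 hr and 0 in C57BL/6. The SOX gene Sox10 fell by 1.35 (adjusted p = 0.0162), Sox4 fell by 1.06 (adjusted p = 0.0216), and Cbfb, the binding partner of RUNX factors, fell by 0.50 (SE 0.13, adjusted p = 0.0377). In C57BL/6 HD MG at 1 month Ets2 fell by 0.77 (adjusted p = 0.0392) and Stat3 fell by 0.46 (adjusted p = 0.0462). Of 15 other luminal regulators, Grhl2 fell by 0.78 (adjusted p = 0.0314) and Tfap2c fell by 0.72 (adjusted p = 0.0489) in BALB/c at 4 hr, and none passed in C57BL/6. Of 10 myoepithelial genes, Trp63 fell by 1.09 (SE 0.25, adjusted p = 0.0215) in BALB/c at 4 hr.

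Within groups, the members fell into sets. Deviations from the group mean were correlated across the 20 BALB/c and 23 C57BL/6 MG arrays and averaged over strains, as a description in which the arrays share plate and tissue mixture. Elf5 and Ehf had a mean Pearson r of 0.83 (0.85 in BALB/c, 0.82 in C57BL/6), Ehf and Sox9 0.83, Elf5 and Sox9 0.75, and Elf5 and Runx1 0.67. Stat5a was at 0.45 with Stat5b (0.17 in BALB/c, 0.72 in C57BL/6). With Elf5 the Stat5 genes differed in sign between the strains: Stat5a was at −0.30 in BALB/c and 0.21 in C57BL/6, and Stat5b at −0.42 in BALB/c and 0.18 in C57BL/6. Glands that held more Elf5 than their group mean therefore tended to hold more Ehf and Sox9 in both strains.

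Against the gene lists, Gata3 had an r of 0.80 with the luminal structure mean, Elf5 0.82 with the luminal progenitor and alveolar mean, and Sox9 0.87 with other luminal regulators, 0.81 with myoepithelial genes and 0.78 with luminal progenitor and alveolar genes. Id2 stood at 0.05 with luminal structure genes and at 0.52 with T cell genes (0.70 in BALB/c, 0.33 in C57BL/6), and the BALB/c value includes the HD 1 month array with lymphocyte transcripts. The genes most alike over the same 43 arrays were Sox10 (0.89), Plet1 (0.89) and Klc3 (0.86) for Elf5. They were Plekhb1 (0.88), Muc15 (0.87) and Irx2 (0.86) for Ehf, Tlcd4 (0.84), Tmem30b (0.81) and Krt18 (0.78) for Gata3, and Serpinb5 (0.90), Fxyd3 (0.89) and Wfdc18 (0.87) for Sox9. Those of Stat5a were Mmd2 (0.87), Brox (0.87) and Tgm2 (0.86), and those of Id2 were Smc4 (0.79), Rps16 (0.77) and Prkcb (0.76). Values were lower for Runx1, with Il17re (0.68), Elf5 (0.67) and Shroom3 (0.65), for Elf3, with Wdr6 (0.74), Tfcp2l1 (0.71) and Ano1 (0.68), for Msx2, with Cnn3 (0.64), Lsr (0.61) and Gfus (0.61), and for Stat5b, with Lrp1 (0.64), Jup (0.64) and Pgr (0.63).

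**Figure D5:**
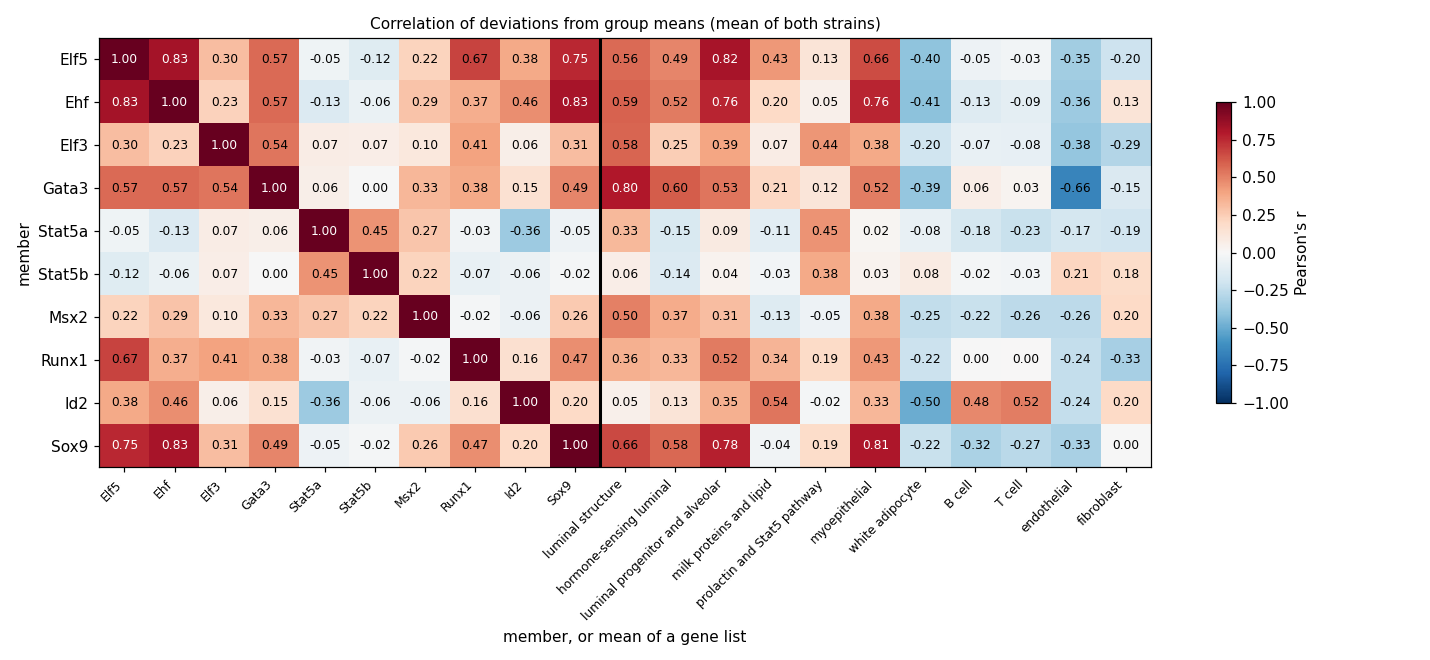
Pearson correlation (colour, mean of both strains) of deviations from group means of the brightest probe sets of the 10 genes (rows) with each other and with the means of gene lists (columns), across 20 BALB/c and 23 C57BL/6 MG arrays. Elf5, Ehf and Sox9 form a block at 0.75 to 0.83, while the means over strains for Stat5a and Stat5b with these genes lie between −0.13 and −0.02.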

How the data were processed

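MG and blood RNA of single mice was hybridised to the Affymetrix HT Mouse Genome 430A plate, and the authors deposited log2 expression values computed with RMA (robust multi-array average: background correction, normalization between arrays and 1 summary value per probe set). The authors also used limma, and the versions of their tools are not given in the sources used here. The deposited log2 values were used as they stand. Probe sets were named through the platform annotation, of which 18003 of 22626 had 1 gene symbol, 287 had several and 4336 had none.

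Linear models (limma 3.58.1 in R 4.3.3, with empirical Bayes) were fitted over all 22626 probe sets, and p-values were adjusted by Benjamini-Hochberg over all of them, with calls at 0.05. The fits held all arrays of a strain for the doses and times, the 13 sham MG arrays for the strains, all 43 MG arrays for differences of response, and the 8 blood arrays. Intervals are 95%. The study's thresholds (absolute log2 difference above 0.58, with an unadjusted p below 0.1 for LD and 0.01 for HD) gave a second count. The fits were checked on simulated data. Values were summarized with pandas 2.3.3 and numpy 2.4.6 in Python 3.11 and plotted with matplotlib 3.10.9. Each group held 2 to 4 arrays, and that number limits the precision. Microarrays give no read depth.

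The members and the gene lists were chosen with earlier results of these data known. All 10 members were named with every probe set, and the probe set with the highest mean over the 43 MG arrays stands for a gene. Of each list up to 3 genes with the smallest p were named, and for each member the 3 genes with the most similar deviations from group means. List levels are means over the listed genes of an array, and no list was tested as a set.

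Alternatives were the replicate number as a block, plate column as a covariate, array weights, leaving out the 6 arrays with transcripts of other tissues, quantile normalization, only probe sets with a mean of at least 5, 1 fit over all MG arrays, and leaving out each array in turn. Arrays with the same replicate number did not deviate together, with a mean correlation of 0.0145 over 43 same-numbered pairs in BALB/c and 0.0124 over 55 in C57BL/6, so the numbers were not used as pairs.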

Additional observations from a re-analysis of the deposited data

Results flagged for a closer look

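In groups of 4 arrays, an array was singled out when its gap to the nearest other array was an unusually large share of the range of the group. This happened in 9 of 186 combinations of probe set and group, and chance alone gives about 1 in 20. Ehf and Runx1 gave 3 each. In C57BL/6 LD MG at 1 month, replicate 2 was the highest at 1419474_a_at (5.29, against 4.63 to 4.68 in the others) and at 1451375_at (8.55, against 7.55 to 7.69). In BALB/c HD MG at 1 month, replicate 3 was the highest at Ehf 1419475_a_at (6.80, against 5.98 to 6.10), and this is the array with a skeletal muscle list level of 8.62.

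Elf5 1419556_at was lowest in BALB/c LD 4 hr replicate 3 (5.56, against 6.13 to 6.18), and Stat5b 1422103_a_at was highest in BALB/c LD 4 hr replicate 1 (7.83, against 7.57 to 7.60), the array with an epidermis list level of 6.80. Id2 1453596_at was highest in BALB/c HD 1 month replicate 1 (4.99, against 4.15 to 4.30), the array with lymphocyte transcripts. Among the dim Runx1 probe sets, 1427650_a_at was highest in BALB/c HD 1 month replicate 2 (5.30, against 4.56 to 4.61), and 1452530_a_at was lowest in C57BL/6 HD 1 month replicate 1 (4.36, against 4.48 in each of the others). Runx1 1452531_at was lowest in C57BL/6 blood replicate 4 (4.25, against 5.02 to 5.08), the blood array with a B cell list level of 6.73 and a liver list level of 13.39. The part of the other cell types in these values was not tested. No difference of response between the strains passed an adjusted p of 0.05 for any member.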

How the results depend on the processing

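For single values, 74 member differences were recomputed under the alternatives, giving 1062 values. None of these changed direction and 244 lost their side of the threshold. The settings were unequal in this: with plate column as a covariate, 48 values lost it and 21 kept it. The counts of member probe sets called were as follows.

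HD against sham MG at 4 hr (6 in BALB/c, 4 in C57BL/6) gave 0 and 1 with plate column as a covariate, 3 in BALB/c without the 6 arrays with transcripts of other tissues, 1 to 9 and 1 to 4 with single arrays left out, and 10 and 8 under the study's thresholds. HD against sham MG at 1 month (0 in BALB/c, 2 in C57BL/6) gave 1 and 4 in 1 fit over all MG arrays, 1 in BALB/c after quantile normalization and without dim probe sets, 4 in C57BL/6 with array weights, 0 with plate column, 1 without the 6 arrays, 0 to 3 and 0 to 4 with single arrays left out, and 10 and 8 under the study's thresholds. HD against LD at 4 hr (13 in BALB/c, 3 in C57BL/6) gave 3 and 1 with plate column, 6 in BALB/c without the 6 arrays, 5 in C57BL/6 with array weights and without dim probe sets, and 9 to 14 and 2 to 9 with single arrays left out. HD against LD at 1 month in BALB/c (0) gave 0 to 1 with single arrays left out. LD against sham MG (0 throughout) gave 6 at 4 hr and 2 at 1 month in BALB/c and 8 at 1 month in C57BL/6 under the study's thresholds, and 0 with any array left out. The call between 1 month and 4 hr in C57BL/6 sham MG (1) was 0 after quantile normalization and without the 6 arrays, and 0 to 1 with single arrays left out. The strain difference in sham MG (5) gave 3 without the 6 arrays and 3 to 6 with single arrays left out, and blood (0) gave 0 to 1. The cause of these changes was not tested, and leaving out arrays also leaves fewer samples.

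With the replicate block, HD against sham MG at 4 hr had 4 calls for BALB/c, down from 6, and 3 for C57BL/6, down from 4. HD against LD at 4 hr had 14 calls for BALB/c, up from 13, while C57BL/6 stayed at 3. The strain difference in sham MG rose from 5 calls to 6.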
